A study of Saccharomyces cerevisiae with 9 samples.

Results

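The genes described here encode the machinery that carries proteins into the endoplasmic reticulum (ER) of the yeast Saccharomyces cerevisiae, folds and glycosylates them there, and removes those that fail to fold. The set holds 35 genes chosen by name, each read by the probe set that the platform's gene table pairs with that gene alone. All 35 were measured, out of 5449 S. cerevisiae genes on the array. Each had 1 probe set, none of these carried a name ending that marks shared transcripts, and all 35 means lay above the background limit of 5.64 on the log2 scale. The lowest member mean was 9.55.

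Expression was measured on 9 Affymetrix arrays from 3 recombinant strains, with 3 arrays each. The control strain is REF. In D12 the D12-desaturase gene of Mucor rouxii, a fungus, is expressed, whose enzyme converts oleic into linoleic acid, and D126 co-expresses that enzyme with the D6-desaturase of the same fungus, which acts on linoleic acid in turn. Chemostat cultures of every strain were limited by glucose, diluted at 0.1 per h, and sampled after 5 or more residence times at steady state. The sources used here do not give the promoters and copy number of the desaturase genes, the strain background or its mating type, and the transcripts of the desaturase genes were not analysed here. The labels do not state whether replicates were separate cultures, so a p-value here reflects just the spread between samples of a strain, and that spread may be technical.

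Proteins enter the yeast ER through the Sec61 channel and are held there by Kar2, the Hsp70 chaperone known as BiP in animals, whose cycle of binding and release is set by J-domain proteins and nucleotide exchange factors. Protein disulfide isomerases and the oxidase Ero1 form disulfide bonds, oligosaccharyltransferase attaches N-glycans, and ER-associated degradation (ERAD) returns misfolded proteins to the cytosol. When unfolded proteins accumulate or the lipid composition of the ER membrane is disturbed, the sensor Ire1 splices HAC1 mRNA, and the Hac1 protein raises transcription of many of these genes, a programme called the unfolded protein response (UPR). The splicing step is a change of mRNA form, which the level of a probe set does not report.

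Values are the authors' normalized log2 expression values. Differences are given on the same log2 scale with their standard error (SE), and a gene was called at a Benjamini-Hochberg adjusted p under 0.05 over the 5449 genes in a limma fit of all 9 arrays. A principal component with 54.7% of the variance separated the D126 arrays from the remaining 6. D12 replicate 3 stood apart along another (18.4%), and it differed from the other D12 arrays with an SD of 0.160 and 0.170 over all genes, where D12 replicates 1 and 2 differed by 0.110. Array medians over all S. cerevisiae genes ran from 10.94 to 10.99. Over all probe sets they ran from 7.71 in D12 replicate 2 to 7.999 in D12 replicate 3, and lay between 7.77 and 7.86 on the other 7 arrays. Markers of a cells (STE2, MFA1, MFA2, STE6, BAR1 and AGA2) were all above background. Of these, 6 of 6 rose in D126 against REF, where 8.59% of all genes rose and 12.9% fell. Their summed level in log2 units was 14.930 to 14.935 in D126, 14.48 to 14.57 in REF and 14.47 to 14.61 in D12. The 4 markers of alpha cells summed to 10.73 to 10.84 in D126, 10.87 to 10.91 in REF and 10.83 to 10.96 in D12. Among them 1 rose (25% called), MF(ALPHA)1, at 6.63 against 6.11 in REF, near the background limit of 5.64. Of 9 sporulation markers, 1 rose (SPS4) and 0 fell in D126, which is 11.1% called against 21.5% of all genes. Their sums overlapped among the strains (11.25 to 11.60 over all arrays). The part of these markers in the differences below was not tested.

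The comparison of D126 with REF asked how expression of both desaturases altered these genes. Of the 35 genes, 7 rose and 1 fell. That is 22.9% called, near the 21.5% of all genes that were called (8.59% higher and 12.9% lower). The increases were small and lay in Kar2 and its partners (KAR2, LHS1, SIL1 and JEM1), in the channel subunit gene SBH1 and in the ERAD genes HRD3 and UBC7. ERV2, a thiol oxidase gene, was the only member that fell. The median difference was 0.07 over the 35 genes and -0.0034 over all genes, and 25 of 35 members lay above 0, against 48.6% of all genes. Before adjustment, 17 of the 35 had a p under 0.05, against 35.8% of all genes. When all non-control probe sets were fitted and adjusted over, LHS1, SIL1 and ERV2 were the members called. That fit includes probe sets whose gene is outside the S. cerevisiae table, and it called 548 of the 5449 genes (10.1%).

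**Figure D1:**
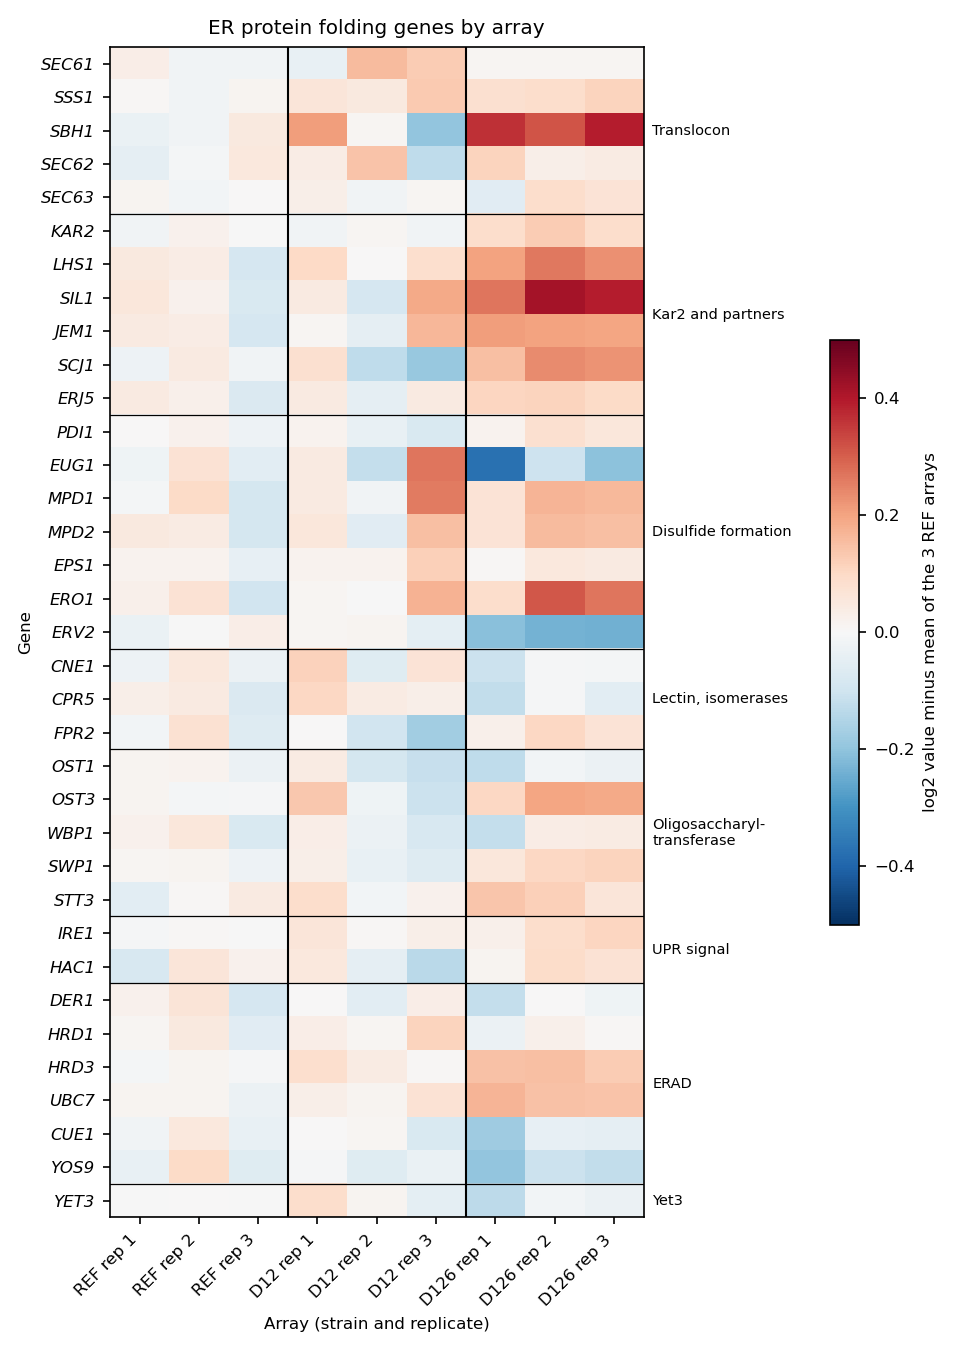
Log2 value on each array minus the mean of the 3 REF arrays, for the 35 genes (rows, grouped by role) and 9 arrays (columns). SBH1 and SIL1 stand highest in D126, ERV2 is low on all 3 D126 arrays, and D12 replicate 3 departs from the other D12 arrays in both directions, as for EUG1 (11.00) and SBH1 (11.86).

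Among the channel subunits, SBH1, the beta subunit of the Sec61 complex (YER087C-B), stood at 12.02, 12.04 and 12.10 in REF, at 12.27, 12.07 and 11.86 in D12, and at 12.42, 12.37 and 12.45 in D126. The D126 values lay above all others, and the D12 values spread more widely than those of either other strain. SBH1 rose by 0.36 (SE 0.08) over REF, or 28.1%, with an adjusted p of 0.0173. Leaving out REF replicate 1 (adjusted p = 0.0576), REF replicate 2 (0.0618), D126 replicate 1 (0.0530) or D126 replicate 3 (0.0614) ended the call.

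SEC61 (YLR378C), which encodes the pore-forming subunit, stood at 13.29, 13.24 and 13.24 in REF, at 13.22, 13.41 and 13.38 in D12, and at 13.26 on each D126 array. The D126 values fell inside the range of REF. SEC61 differed by 0.01 between D126 and REF, with a 95% interval of -0.10 to 0.12 (adjusted p = 0.930). The 3 D126 values were identical to every decimal, so their SD of 0 is no measure of error. Of the 35 genes, only 1 (SEC61) had 3 identical values in a strain. A value repeated between any arrays, of the same strain or not, occurred in 6 of the 35 genes and in 48.7% of all probe sets.

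SSS1, the small gamma subunit, stood at 12.86, 12.84 and 12.87 in REF and at 12.94, 12.95 and 12.97 in D126, which did not overlap. Its difference of 0.09 was not called (adjusted p = 0.0668), and it was called without D12 replicate 3 (0.0276). SEC62 and SEC63, counted here with the channel genes, differed by 0.06 and 0.03 (adjusted p = 0.532 and 0.604).

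Of Kar2 and its partners, 4 of 6 were called higher and 0 lower, where 8.59% of all genes were called higher, and their median difference was 0.20. The count was 2 of 6 (LHS1 and SIL1) with a replicate block and without any 1 of the 6 REF and D126 arrays, and 4 of 6 with the block when D12 was left out of the fit. Over all genes, 468 were higher as reported and 357 with the block. Without 1 of those arrays 241 to 331 were higher, and 697 with the block when D12 was left out. In all 6 genes the 3 D126 values lay above the 3 REF values, which held for 22.2% of all genes. The genes were chosen with earlier results of these data known, and members often moved together on an array. These counts are therefore not of independent genes. The median of the 6 genes relative to their REF means was 0.18, 0.22 and 0.21 on the D126 arrays, -0.05 to 0.06 on the D12 arrays and -0.08 to 0.05 on the REF arrays.

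KAR2 (YJL034W), the chaperone itself, stood at 14.40, 14.44 and 14.42 in REF, at 14.40, 14.43 and 14.41 in D12, and at 14.51, 14.55 and 14.51 in D126. The D126 arrays lay above all others by a narrow margin. KAR2 rose by 0.10 (SE 0.03) over REF, or 7.18%, with an adjusted p of 0.0401. The call was lost with a replicate block (adjusted p = 0.0693, and 0.0502 when D12 was left out of the fit) and without any 1 of the 6 REF and D126 arrays (0.0602 to 0.126). The highest value of any probe set was 15.51, and compression of differences among such bright probe sets was not tested.

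SIL1 (YOL031C), a nucleotide exchange factor of Kar2, had the largest difference of the 35 genes. It stood at 10.04, 10.00 and 9.90 in REF, at 10.03, 9.90 and 10.17 in D12, and at 10.25, 10.40 and 10.37 in D126. REF and D126 did not overlap, and D12 replicate 3 came closest to the D126 arrays. SIL1 rose by 0.36 (SE 0.07) over REF, or 28.4%, with an adjusted p of 0.00783, and ranked 258 of 5449 genes by absolute difference.

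LHS1 (YKL073W), an Hsp70-like protein that also exchanges the nucleotide of Kar2, stood at 10.88, 10.87 and 10.75 in REF, at 10.93, 10.83 and 10.92 in D12, and at 11.03, 11.09 and 11.06 in D126. The D126 arrays were again highest, and REF replicate 3 was lowest. LHS1 rose by 0.23 (SE 0.05), or 17.3%, with an adjusted p of 0.00754. The calls of SIL1 and LHS1 held under all 19 alternatives run, with adjusted p up to 0.0351 and 0.0342.

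JEM1 (YJL073W), a J-domain protein that also serves nuclear fusion in mating, stood at 9.51, 9.50 and 9.38 in REF, at 9.47, 9.42 and 9.63 in D12, and at 9.67, 9.67 and 9.66 in D126. The D126 values were nearly equal and lay above the REF values, while D12 replicate 3 came close to them. JEM1 rose by 0.20 (SE 0.06, adjusted p = 0.0329). It lost its call with a replicate block (adjusted p = 0.0718, but 0.0143 when D12 was left out of the fit) and without any 1 of the 6 REF and D126 arrays (0.0537 to 0.112).

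SCJ1 (YMR214W), another J-domain partner of Kar2, stood at 11.59, 11.66 and 11.59 in REF, at 11.69, 11.49 and 11.42 in D12, and at 11.76, 11.85 and 11.84 in D126. REF and D126 did not overlap, and D12 held both high and low values. The difference of 0.20 from REF was not called (adjusted p = 0.0517). The replicate block called it on the REF and D126 arrays alone (0.00879) but not on all arrays (0.0899). It was also called without D12 replicate 3 (0.0248). ERJ5, a further ER J-domain protein, ran from 10.60 to 10.72 in REF and from 10.77 to 10.79 in D126, and its difference of 0.10 was not called (adjusted p = 0.104).

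**Figure D2:**
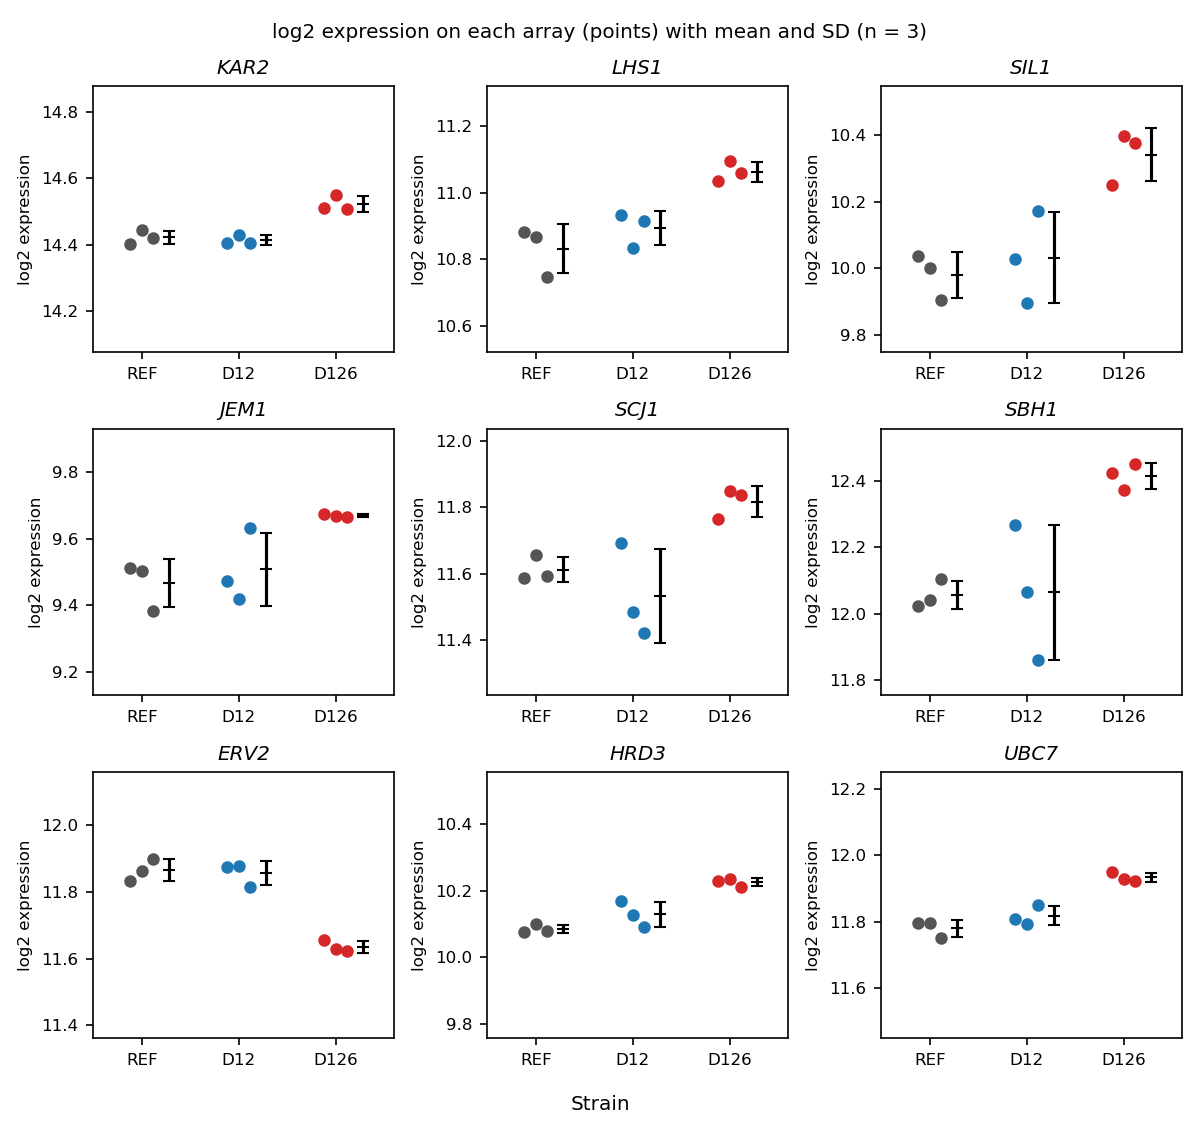
Log2 expression of 9 genes on each array, with 1 panel per gene and a vertical axis of equal length in each. Points are arrays in order of replicate number, and the bars give the mean and SD of 3 arrays. D126 lies above REF without overlap for 8 genes and below it for ERV2, and the D12 arrays of SBH1 span 11.86 to 12.27.

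Of the 7 genes of disulfide formation, 0 rose and 1 fell (14.3% called), where 8.59% of all genes rose and 12.9% fell. ERV2 (YPR037C), an FAD-dependent thiol oxidase of the ER that can make disulfides without Ero1, stood at 11.83, 11.86 and 11.90 in REF, at 11.88, 11.88 and 11.81 in D12, and at 11.66, 11.63 and 11.62 in D126. The D126 values lay below all others. ERV2 fell by 0.23 (SE 0.03) from REF with an adjusted p of 0.00164, the smallest of the 35 genes. This call held under all 19 alternatives, with adjusted p up to 0.0124.

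ERO1 (YML130C), the main thiol oxidase, stood at 11.81, 11.86 and 11.69 in REF, at 11.80, 11.78 and 11.96 in D12, and at 11.88, 12.10 and 12.05 in D126. D126 replicate 1 lay just above the highest REF value, and the other D126 arrays lay well above it. The difference of 0.22 (SE 0.07) was not called (adjusted p = 0.0576). The replicate block called it on the REF and D126 arrays alone (0.0441) but not on all arrays (0.0899). It was also called with quantile normalization (0.0471), with arrays centred on their medians (0.0418) and without D12 replicate 3 (0.0347).

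PDI1 (YCL043C), the essential protein disulfide isomerase, stood at 14.27, 14.29 and 14.24 in REF, at 14.29, 14.23 and 14.19 in D12, and at 14.29, 14.35 and 14.33 in D126. The strains overlapped. Its difference of 0.05 between D126 and REF had a 95% interval of -0.03 to 0.13 (adjusted p = 0.339). EUG1, a PDI1 homologue with altered active sites, had 3 D126 values (10.36, 10.63 and 10.53) below the 3 of REF (10.68 to 10.81). Its difference of -0.23 carried an SE of 0.10 and was not called (adjusted p = 0.130). The replicate block called it on the REF and D126 arrays alone (0.0207) but not on all arrays (0.170). MPD1, MPD2 and EPS1, the other isomerase homologues, differed by 0.13, 0.12 and 0.04 (adjusted p = 0.229, 0.164 and 0.548).

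The folding helpers of the lectin and isomerase group were not called. CNE1, the yeast calnexin, differed by -0.04, the cyclophilin CPR5 by -0.06, and FPR2, a peptidyl-prolyl isomerase that binds FK506, by 0.07 (adjusted p = 0.612, 0.372 and 0.407). FPR2 and EUG1 are direct neighbours in the gene table of the R64 assembly and differed from REF with opposite signs.

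The UPR regulators themselves were not called. IRE1 (YHR079C), the sensor kinase and ribonuclease, stood at 10.60, 10.61 and 10.60 in REF, at 10.66, 10.61 and 10.63 in D12, and at 10.63, 10.69 and 10.71 in D126. The D126 arrays lay above REF but not above D12. The difference from REF was 0.07 (SE 0.03, adjusted p = 0.142).

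HAC1 (YFL031W), the transcription factor gene, stood at 13.72, 13.86 and 13.83 in REF, at 13.86, 13.76 and 13.67 in D12, and at 13.82, 13.90 and 13.88 in D126. The strains overlapped. HAC1 differed by 0.06 between D126 and REF with a 95% interval of -0.07 to 0.18 (adjusted p = 0.484). Among 8 further regulators of the UPR and of the inositol response linked to it, 0 rose and 2 fell. That is 25% called, near the 21.5% of all genes (8.59% higher and 12.9% lower). INO2, an activator of phospholipid genes, fell by 0.34, and GCN2, a kinase of the amino acid response, fell by 0.14 (adjusted p = 0.00338 and 0.0346).

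In N-glycosylation, 0 of the 5 oligosaccharyltransferase genes were called against REF, where 21.5% of all genes were called. OST3, which has a thioredoxin-like domain, stood at 12.17, 12.15 and 12.15 in REF and at 12.26, 12.36 and 12.35 in D126. Its values did not overlap, and its difference of 0.16 had an adjusted p of 0.0739. With the replicate block this was 0.0253 on the REF and D126 arrays alone and 0.117 on all arrays. STT3, the catalytic subunit, differed by 0.11, SWP1 by 0.09, WBP1 by -0.01 and OST1 by -0.06, with adjusted p from 0.0940 to 0.887.

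Among ERAD genes 2 of 6 rose and 0 fell, where 8.59% of all genes rose and 12.9% fell. UBC7 (YMR022W), a ubiquitin-conjugating enzyme of the ER surface, stood at 11.80, 11.80 and 11.75 in REF, at 11.81, 11.80 and 11.85 in D12, and at 11.95, 11.93 and 11.92 in D126. Its D126 values lay above all others, and it rose by 0.15 (SE 0.03) over REF with an adjusted p of 0.00853. HRD3 (YLR207W), which holds the Hrd1 ubiquitin ligase complex together, stood at 10.08, 10.10 and 10.08 in REF, at 10.17, 10.13 and 10.09 in D12, and at 10.23, 10.24 and 10.21 in D126. D126 was again highest without overlap, and HRD3 rose by 0.14 (SE 0.03) over REF, with an adjusted p of 0.0128. Both calls held without any 1 of the 9 arrays.

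Their complex partners were not called. HRD1, the ligase, differed by 0.00 (95% interval -0.09 to 0.09), DER1, a channel component, by -0.05, and CUE1, which anchors Ubc7 at the membrane, by -0.09 (adjusted p = 0.986, 0.541 and 0.222). YOS9, a lectin that reads the glycans of misfolded proteins, stood at 9.77, 9.90 and 9.74 in REF and at 9.60, 9.69 and 9.68 in D126. The D126 values lay below those of REF, and the difference of -0.14 had an adjusted p of 0.0567. With the replicate block this was 0.0415 on the REF and D126 arrays alone and 0.0893 on all arrays. YET3 (YDL072C), a homologue of the mammalian protein BAP31, stood at 12.750, 12.755 and 12.750 in REF, at 12.84, 12.77 and 12.70 in D12, and at 12.62, 12.74 and 12.72 in D126. The D126 values lay just below those of REF, and the difference of -0.06 was not called (adjusted p = 0.387).

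**Figure D3:**
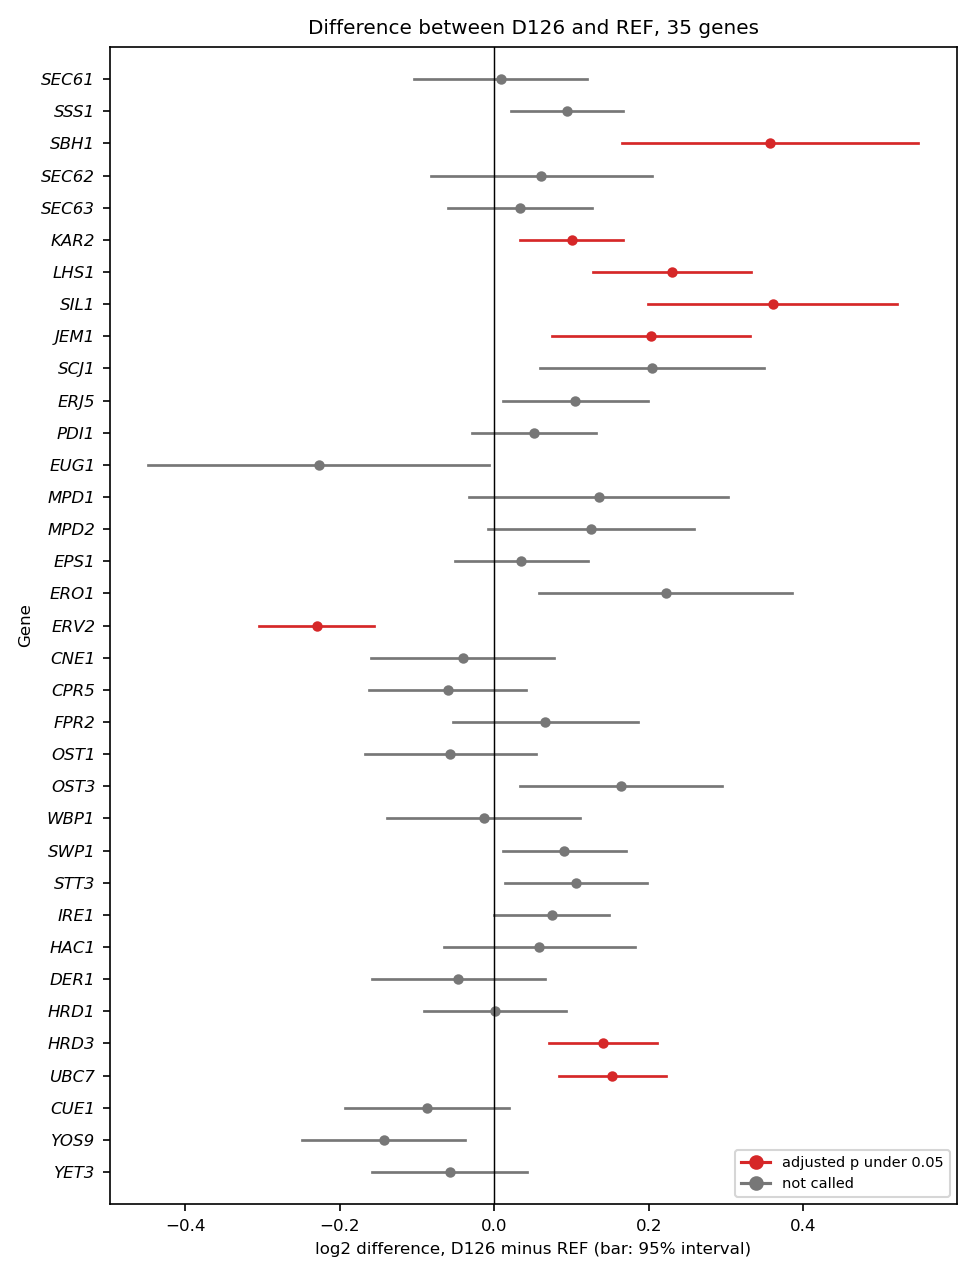
Log2 difference between D126 and REF for the 35 genes in the order of their roles, with 95% intervals from the limma fit. Red marks an adjusted p under 0.05. ERV2 is the red point below 0, and the widest interval is that of EUG1, from -0.45 to -0.01.

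In D126 against REF, 21 of the 35 genes had values that did not overlap, 16 higher and 5 lower (ERV2, EUG1, YOS9, CUE1 and YET3), against 47.9% of all genes, 22.2% higher and 25.7% lower. The smallest called difference among them was 0.10 and the largest uncalled was 0.23 in size. Members often moved together on an array: D126 replicate 1 held the lowest D126 value for 26 of the 35 genes (42.0% of all genes) and D126 replicate 2 the highest for 25 (35.6%). Likewise, REF replicate 3 was lowest in REF for 22 genes (42.3% of all genes) and REF replicate 2 highest for 22 (35.6%). The number of members higher fell to 4 without REF replicate 1, REF replicate 2 or D126 replicate 3 and reached 11 without D12 replicate 3. Calls over all genes moved the same way: 468 were higher as reported, and 306, 241, 256 and 651 in these fits. With a replicate block 5 members were higher and 1 lower, and 9 and 3 with the REF and D126 arrays alone. Over all genes these were 357 and 565, and 697 and 906.

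Other genes of the secretory pathway, in lists that do not hold the 35, were called in both directions between D126 and REF. The shares called were 25% of other translocation genes, 23.1% of other glycosylation genes, 25% of other ERAD genes and 23.5% of COPII transport genes, near the 21.5% of all genes. Of 16 other translocation genes, 3 rose and 1 fell (median 0.04). SRP14 and SPC2, subunits of the signal recognition particle and of signal peptidase, rose by 0.19 and 0.15, and SRP54, the subunit that binds signal sequences, fell by 0.12. Of 26 other glycosylation genes measured, 3 rose and 3 fell (median -0.01). OST4 and OST5, small subunits of oligosaccharyltransferase, rose by 0.24 and 0.23, and ALG13, a subunit of a glycosyltransferase that builds the lipid-linked sugar, fell by 0.27.

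Of 12 other ERAD genes, 0 rose and 3 fell (median -0.05). UFD1 and NPL4, cofactors of the Cdc48 ATPase, fell by 0.16 and 0.14, and PNG1, a glycanase, fell by 0.15. Of 17 genes of COPII vesicle transport measured, 3 rose and 1 fell (median 0.00). ERP2 and EMP24, of the p24 cargo receptors, rose by 0.19 and 0.16, and ERV29, a receptor for soluble cargo, fell by 0.17.

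Cytosolic chaperones, the nearest relatives of the Kar2 group in function, are given for comparison. Of 15 such genes, 1 rose and 8 fell in D126 against REF, with a median of -0.10 (-0.13 with quantile normalization). That is 60% called, against 21.5% of all genes. SSA3, a stress-induced cytosolic Hsp70, fell by 0.53, SSE2, an exchange factor of cytosolic Hsp70, by 0.47, and HSP42, a small heat shock protein, by 0.30. The gene that rose was SSA2, another cytosolic Hsp70, by 0.14 (adjusted p = 0.0166). The 6 uncalled genes, with SSA1, SSE1 and HSC82 among them, differed by up to 0.07 in size. The 3 arrays of D126 had medians of -0.09, -0.08 and -0.11 for this list relative to REF, where Kar2 and its partners had 0.18, 0.22 and 0.21. A difference between the lists was not tested. In D126 against D12, 7.32% of all genes were called higher and 14.7% lower (22.0% called). The counts higher and lower were 0 and 0 of 16 for other translocation (0% called) and 4 and 2 of 26 for other glycosylation (23.1%). They were 1 and 0 of 12 for other ERAD (8.33%) and 1 and 0 of 17 for COPII transport (5.88%). For UPR regulators they were 0 and 2 of 8 (25%), and for cytosolic chaperones 1 and 6 of 15 (46.7%).

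**Figure D4:**
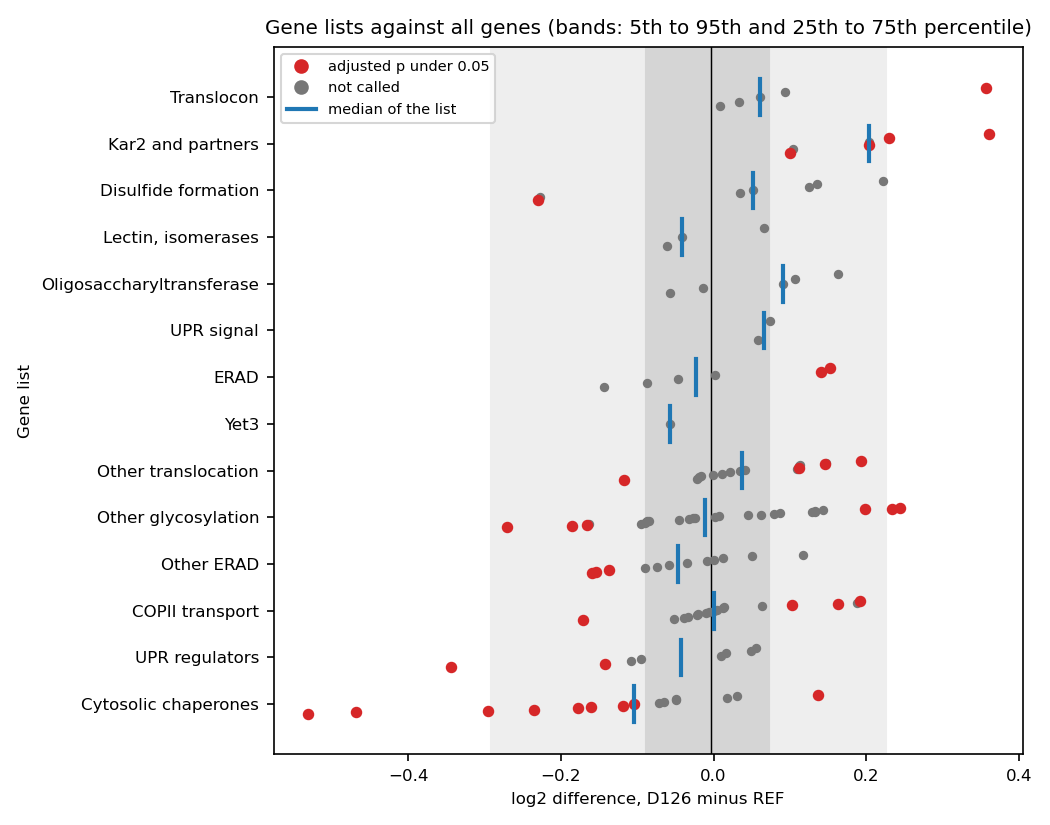
Log2 difference between D126 and REF for each gene of the 8 roles and of 6 further lists (rows). Points are genes, red where the adjusted p is under 0.05, blue bars are list medians, and the grey bands span the 5th to 95th (-0.29 to 0.23) and the 25th to 75th percentile (-0.09 to 0.07) of all 5449 genes. The median of Kar2 and its partners lies at 0.20 and that of cytosolic chaperones at -0.10.

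Adding the D6-desaturase was addressed by comparing D126 with D12. This comparison shares the D126 arrays with the previous one, so the values below repeat part of it. Again 7 of the 35 genes were higher and 1 lower, against 22.0% of all genes called (7.32% higher and 14.7% lower). SBH1 rose by 0.35 (SE 0.08), SIL1 by 0.31 (SE 0.07), SCJ1 by 0.28 (SE 0.06), LHS1 by 0.17 (SE 0.05) and KAR2 by 0.11 (SE 0.03), with adjusted p of 0.0191, 0.0154, 0.0142, 0.0283 and 0.0283. UBC7 rose by 0.12 and SWP1 by 0.11 (adjusted p = 0.0278 and 0.0463), and ERV2 fell by 0.22 (SE 0.03, adjusted p = 0.00231).

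SWP1, an oligosaccharyltransferase subunit, stood at 12.11, 12.11 and 12.07 in REF, at 12.13, 12.06 and 12.04 in D12, and at 12.16, 12.20 and 12.21 in D126. The D126 arrays lay above both other strains. Differences that missed the threshold included those of EUG1 at -0.29 (SE 0.10, adjusted p = 0.0612), JEM1 at 0.16 (0.0730), HRD3 at 0.10 (0.0527) and FPR2 at 0.15 (0.0684). JEM1, HRD3 and FPR2 were called with quantile normalization (0.00645, 0.0342 and 0.0366) and with arrays centred on their medians (0.0344, 0.0385 and 0.0499). EUG1 was called with neither (0.0588 and 0.0558). Each of these settings gave 10 members higher, where 593 and 536 of all genes were higher. Values did not overlap for 14 of the 35 genes, 11 higher and 3 lower, against 38.4% of all genes, 14.7% higher and 23.8% lower. Before adjustment, 16 had a p under 0.05, against 36.0% of all genes.

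The calls depended on single arrays. Without D12 replicate 3, 7 members were higher and 1 lower (442 and 680 of all genes). JEM1 took the place of SWP1 (adjusted p = 0.0901) among those higher. The number higher fell to 1 without D12 replicate 2, to 2 without D126 replicate 2, to 4 without D126 replicate 1 and to 0 without D126 replicate 3. Calls over all genes fell as well: 399 were higher as reported, and 223, 262, 259 and 208 in these fits. Fitted on the D126 and D12 arrays alone, 3 members were higher (LHS1, SCJ1 and SIL1) and 1 lower (ERV2), as were 242 and 538 of all genes. The call of ERV2 held without any 1 of the 9 arrays.

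The remaining comparison asked what the D12-desaturase alone did. By limma 0 of the 35 genes were called between D12 and REF, as were 0% of all genes, and 1 member (SSS1) had an unadjusted p under 0.05, against 5.98% of all genes. The differences ran from -0.09 (FPR2) to 0.10 (MPD1), with a median of 0.02 over the 35 genes and 0.01 over all genes. KAR2 differed by -0.01 (95% interval -0.08 to 0.06), HAC1 by -0.04 (-0.17 to 0.08), PDI1 by -0.03 (-0.11 to 0.05), SEC61 by 0.08 (-0.03 to 0.20) and SIL1 by 0.05 (-0.11 to 0.21). SSS1 was the only member whose D12 values (12.91 to 12.99) did not overlap those of REF (12.84 to 12.87), against 10.2% of all genes, 6.20% higher and 3.96% lower. Without D12 replicate 3, 0 members were called as well.

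A test for any difference among the 3 strains, limma's moderated F-test, called 8 of the 35 genes, against 20.1% of all genes. These were ERV2 (adjusted p = 0.00228), SIL1 (0.0132), LHS1 (0.0157), UBC7 (0.0172), SBH1 (0.0234), HRD3 (0.0267), SCJ1 (0.0292) and KAR2 (0.0439). JEM1 missed the threshold (0.0613). The spread within a strain was like that of the array as a whole, with a median SD of 0.0482 over the 35 genes and 0.0486 over all genes. The count by this test was 1 without D126 replicate 2 or D126 replicate 3, 3 without D126 replicate 1, 4 without REF replicate 2, 5 without REF replicate 1 or REF replicate 3, and 4 with a replicate block. The share of all genes called by this test in those fits was not computed, so these counts cannot be set against it.

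**Figure D5:**
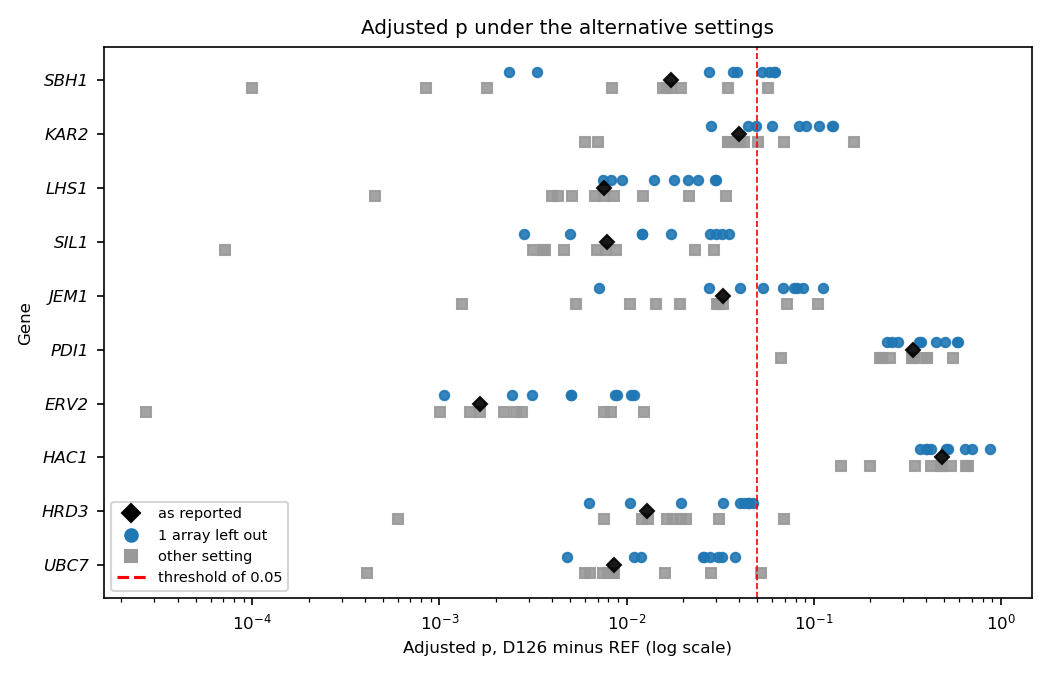
Adjusted p of the difference between D126 and REF for the 8 called genes and for PDI1 and HAC1, on a log axis. Black diamonds give the fit of all 9 arrays, blue points the fits without 1 array, and grey squares the other settings. LHS1, SIL1 and ERV2 stay left of the dashed line at 0.05 in every fit, and PDI1 and HAC1 stay right of it.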

How the data were processed

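The deposited values are log2 expression values, 1 column per array and 10928 probe sets, and the submitters' processing notes name RMA and affy, with no version given there, as what the authors used. Normalization between arrays means that a change in total RNA per cell cannot be seen. The R64 gene table of S. cerevisiae was matched to the platform's identifiers, giving 5498 probe sets of 5449 genes, and the brightest probe set was kept per gene. The background limit is the 95th percentile of the means of 1746 probe sets whose gene is outside that table.

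The 9 arrays were modelled by strain alone with limma 3.58.1 in R 4.3.3, with empirical Bayes moderation (6 residual and 3.10 prior degrees of freedom) and Benjamini-Hochberg adjustment. The code was tested on simulated data. The number of arrays limits the precision: the median SE of a difference was 0.0479.

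Deviations of same-numbered REF and D126 arrays correlated at 0.131 to 0.223 (other numbers -0.229 to 0.054), which meets the rule used here for pairing (above 0.1 in every pair), although the labels do not say what a number marks. Blocked values are therefore given where they change a call. For D12 the correlations were -0.341 to -0.082 with REF and -0.283 to -0.019 with D126, so its numbers did not meet the rule. The replicate block on all arrays nevertheless blocked D12 by its numbers too. The block on the REF and D126 arrays alone left D12 out.

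The 35 genes and the other lists were chosen with earlier results of these data known. Values per array are given for called members and for KAR2, PDI1, ERO1, IRE1, HAC1, SEC61 and YET3, and those of SSS1, EUG1, OST3 and YOS9 were added after their values were seen. From other lists up to 3 called genes with the largest difference between D126 and REF are named, and SSA2, SSA1, SSE1 and HSC82 were added afterwards. Counts for these lists cover the genes measured, and 1 listed gene is not reported here.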

Additional observations from a re-analysis of the deposited data

How the results depend on the processing

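The number of arrays, 3 per strain, and differences of 0.1 to 0.4 on the log2 scale limit these results. Fitting all non-control probe sets and adjusting over them gave 548 calls among the 5449 genes in D126 against REF, with 2 members higher. It gave 578 in D126 against D12 with 0 members higher (7 as reported), and 2 members by the F-test. With array weights the counts were 2615 calls with 18 members higher and 3 lower, 2057 calls with 16 higher, and 21 members by the F-test. D126 replicate 3 alone carried a weight of 5.22 there. The D126 and D12 arrays alone gave 780 calls with 3 members higher. Arrays centred on their medians gave 2 members lower in D126 against REF (ERV2 and YOS9), and the trend and robust variance gave 2 lower in D126 against D12 (ERV2 and EUG1). Between D12 and REF, quantile normalization and array weights each called 1 gene. Causes were not tested.

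With a replicate block in the fit of all arrays, D126 against D12 gave 964 calls with 3 members higher, and 4 members were called by the F-test. With only the arrays compared, the replicate block gave 1603 calls with 3 members lower in D126 against REF. In D126 against D12, where the numbers did not pair, it gave 398 calls with 0 members higher and 0 lower.

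Without 1 array at a time, calls between D12 and REF ran from 0 to 1, with 0 to 0 members higher or lower. Between D126 and REF they ran from 645 to 1539, with 4 to 11 members higher and 1 to 1 lower. Between D126 and D12 they ran from 683 to 1332, with 0 to 8 higher and 1 to 2 lower. By the F-test 1 to 10 members were called. The split of all calls between D126 and D12 moved from 399 higher and 801 lower to 593 and 630 with quantile normalization and 536 and 703 with centred arrays, and that between D126 and REF from 468 and 705 to 592 and 670 with quantile normalization.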
